A study of Mus musculus with 8 samples.

Results

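The RNA polymerase genes of mouse embryos were followed here across 8 RNA-seq libraries. The set held the 38 genes of the table whose symbol begins with Polr1, Polr2 or Polr3, together with Znrd1, Twistnb, Cd3eap, Crcp and Gtf3c1 to Gtf3c6, out of 52636 identifiers in all. By the polymerase that each product belongs to, 6 genes were assigned to Pol I, 8 to Pol II, 11 to Pol III, 2 to Pol I and III, 5 to all 3 polymerases and 6 to TFIIIC, the factor that binds the internal promoters of Pol III genes. The embryos were wild-type B6C3F1 x CD1 zygotes that were produced in vivo, collected from oviducts and cultured. In the ZP3 Trim-away group (3 libraries, labelled E0.5), zygotes had been injected at 15 h post-hCG with mCherry-Trim21 mRNA (0.2 mg/ml), the dextran marker OGDB (0.02 mg/ml) and an anti-ZP3 antibody (1 mg/ml). Trim-away is a method in which the ubiquitin ligase TRIM21 sends an antibody-bound protein, here the zona pellucida protein ZP3, to the proteasome. In the buffer group (4 libraries, labelled E1.5), zygotes had received the same mRNA and OGDB with antibody buffer, and 1 further library was of non-manipulated embryos (E1.5) and entered no test. The study's text gives the numbers the other way round, with 3 buffer and 4 ZP3 Trim-away samples, and the labels were followed here. Embryos were pooled for each library and sampled 24 h after injection by the series title. The labels give the Trim-away libraries an earlier embryonic stage than the buffer libraries, so treatment and stage cannot be told apart in any value below. Nothing in the labels says that the libraries of a group came from separate matings, so the p-values measure the spread between these libraries, and fewer cells of a type and less RNA per cell cannot be told apart in pooled embryos.

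Eukaryotic nuclear transcription is shared between Pol I, which makes the large ribosomal RNA precursor, Pol II, which makes mRNA and many small nuclear RNAs, and Pol III, which makes transfer RNA, 5S ribosomal RNA and other short RNAs. Each polymerase has its own catalytic core, an RNA cleavage subunit and a stalk, but a small set of subunits is built into more than a single enzyme. In mice the embryonic genome is transcribed at a low level in the zygote and much more strongly at the 2-cell stage, while earlier stages live largely on transcripts stored in the oocyte.

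Total counts were 13228428 to 15379933 in the Trim-away, 17615416 to 22427747 in the buffer and 22248022 in the non-manipulated libraries. Values below are CPM, counts scaled to a fixed number of reads per library, on a library size scaled by the trimmed mean of M values (TMM). Trim21 was at 2125, 0 and 3.54 CPM in Trim-away libraries 1, 2 and 3 and at 957 to 8649 CPM in the buffer libraries. Trim-away libraries 2 and 3 thus had few or no Trim21 reads although their labels name the injected mRNA, so the groups are called by their labels only. Zp3 mRNA, which is not the target of a protein depletion, stood at 28.3, 54.7 and 55.7 CPM in the Trim-away and at 105 to 141 CPM in the buffer libraries (edgeR with Benjamini-Hochberg adjustment, adjusted p = 0.055). All 14 oocyte and embryo markers were detected. Of the 13 tested, Bmp15, Zp2 and Nlrp5 were higher in the Trim-away libraries, by 2.17, 2.39 and 1.62 on the log2 scale (edgeR, adjusted p = 0.0109, 0.0176 and 0.0366). The other 10 were not called, and the median log2 fold change of the 13 was 0.61. Dppa3, the most abundant of these markers, lay lower without overlap, as did Zp3 (Dppa3 log2 fold change -0.90, edgeR adjusted p = 0.0564). Dppa3 was at 7680.21 to 8847.94 CPM in the Trim-away and 11777.1 to 22182.3 CPM in the buffer libraries. Ooep, Zscan4d and Tle6 lay higher without overlap and were not called. Their log2 fold changes were 2.43, 1.27 and 0.95 (edgeR, adjusted p = 0.0680, 0.0775 and 0.580). Summed CPM of the 14 markers overlapped, at 10992.9 to 15366.4 in the Trim-away and 13654.5 to 23463.6 in the buffer libraries. Summed CPM of other cell types' markers was 14.3 to 97.4 against 19.0 to 65.3 for cumulus cells (7 of 12 detected, with Ptx3, Amh, Foxl2, Fshr and Cyp11a1 at 0), 0 to 4.76 against 0 to 5.84 for spermatozoa (6 of 9 detected) and 2.06 to 4.12 against 3.16 to 6.22 for blood (5 of 6 in the table detected). For oviduct epithelium (8 of 8 detected) the sum was 41.8 to 268 CPM in the Trim-away and 305 to 370 CPM in the buffer libraries and moved with the groups below. Epcam made up most of it in the buffer libraries (279 to 341 CPM), while Krt18 lay the other way without overlap, at 25.6, 55.9 and 71.9 CPM in the Trim-away and 11.5, 0, 24.9 and 0 CPM in the buffer libraries (log2 fold change 2.49, not past the threshold). Foxj1, Pax8 and Cdhr3 stayed at or under 1.69 CPM in every library. Ovgp1 was at 0 to 11.1 CPM in the Trim-away and 0 to 18.2 CPM in the buffer libraries, and Krt8 at 0 to 4.69 and 0 to 7.67 CPM. Dnah5 had 14.0 CPM in Trim-away library 3 and 0 CPM in the other injected libraries. Of the 4 cumulus markers tested 0 were called, with a median log2 fold change of -0.05. Among them Cyp19a1 was at 1.03, 30.0 and 30.6 CPM in the Trim-away and 0, 0, 0 and 1.66 CPM in the buffer libraries. The part of these markers in the results was not tested.

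Subunits of the RNA polymerases were called lower in the Trim-away libraries or did not pass the test, and none was called higher. All 38 genes passed the filter on low counts. Of these, 8 were lower and 0 were higher at an adjusted p under 0.05 (edgeR quasi-likelihood test with Benjamini-Hochberg adjustment), which is 21.1% of the genes against 3.91% of all 13641 genes tested for the lower direction and 2.98% for the higher direction. At an unadjusted p under 0.05 the numbers were 14 lower and 0 higher, against 12.3% and 8.99% of all genes tested. DESeq2 called 13 lower and 0 higher, against 9.98% and 7.34% of all genes. The 8 genes were Polr1c, Polr3k, Znrd1, Polr2l, Polr2e, Gtf3c6, Polr2f and Polr2k, in the order of p. The median log2 fold change of the 38 genes was -1.26, beside -0.04 over all genes tested, and 34 of 38 fold changes were below 0. In 19 of 38 genes every Trim-away library lay below every buffer library, against 15.5% of all genes tested, and in 0 of 38 every Trim-away library lay above, against 13.1%. The count of 8 depended on the libraries used: it was 6, 5 and 3 without Trim-away replicates 1, 2 and 3, and 4, 3, 3 and 3 without buffer replicates 1 to 4. Znrd1 and Polr1c were called in all 7 of these fits.

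**Figure D1:**
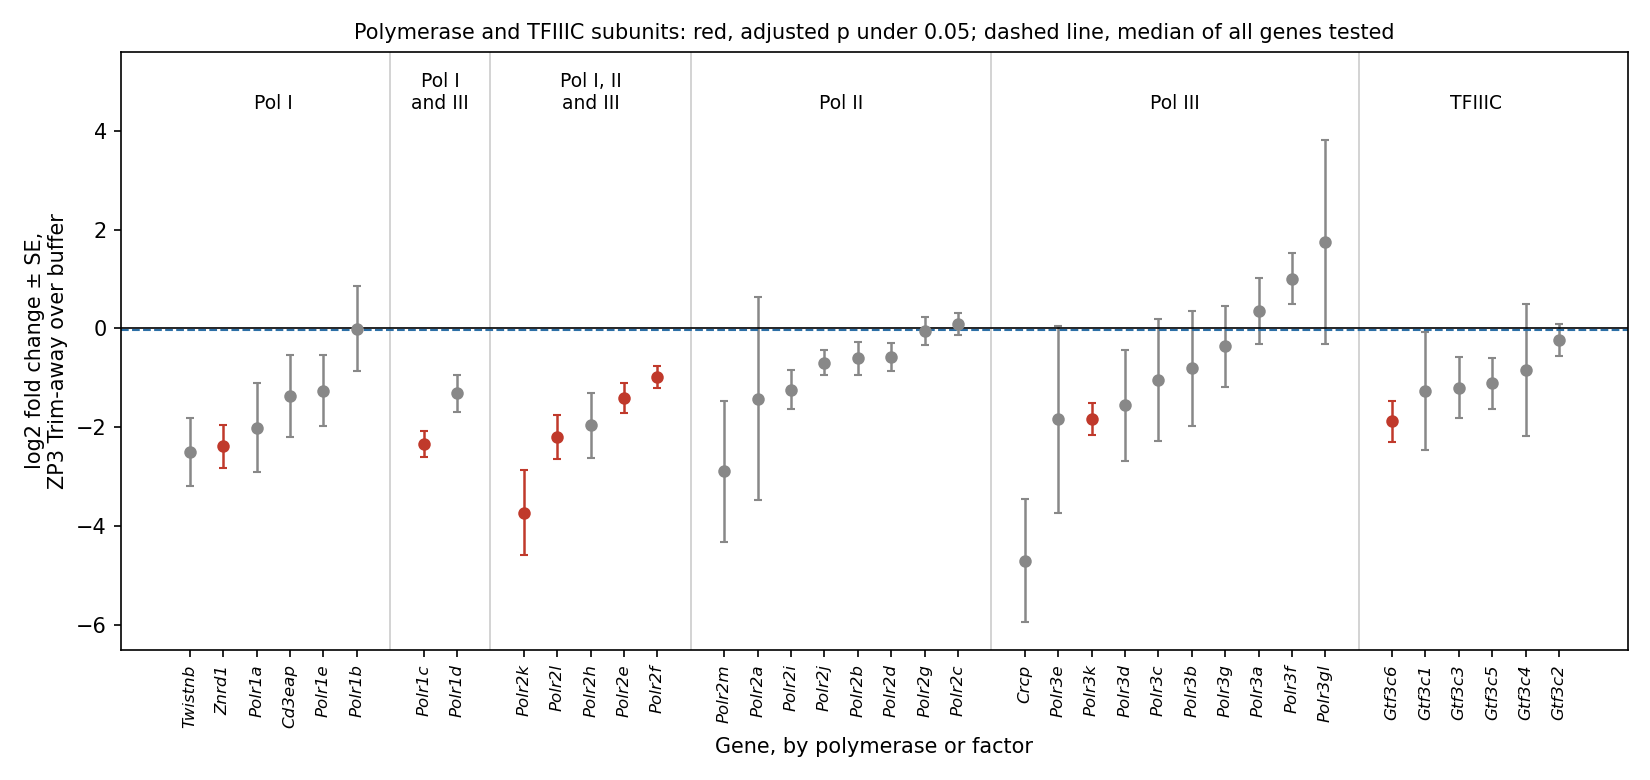
Log2 fold change (Trim-away over buffer, points) with its standard error (bars) for 37 of the 38 genes, grouped by polymerase along the x axis; red points passed the adjusted threshold, and the dashed line is the median of all genes tested (-0.04). In this fit of all injected libraries, 4 of 5 points are red in the subunits of all 3 polymerases and all are below 0. In the Pol II group 0 of 8 are red.

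By group, 5 of the 7 subunits that are shared between polymerases were lower, against 2 of the 25 subunits of a single polymerase and 1 of 6 TFIIIC subunits. Among subunits of a single polymerase, 1 of 6 for Pol I (Znrd1), 0 of 8 for Pol II and 1 of 11 for Pol III (Polr3k) were lower. The median log2 fold change was -1.95 for the shared subunits, -1.68 for Pol I, -0.65 for Pol II, -1.04 for Pol III and -1.16 for TFIIIC. The groups of the libraries did not overlap in 7 of 7 shared subunits, 4 of 6 of Pol I, 3 of 8 of Pol II, 3 of 11 of Pol III and 2 of 6 of TFIIIC, in each with the Trim-away libraries below. Over all genes tested, 3.91% were called lower and 15.5% had every Trim-away library below every buffer library. These counts hold for the fit of all injected libraries. Without Trim-away replicate 3 or buffer replicate 2, 3 or 4, only Polr1c, Polr3k and Znrd1 were called. Polr1c was then the only shared subunit called. Differences between these groups of genes were not tested.

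The heterodimer on which Pol I and Pol III are assembled is made of the products of Polr1c and Polr1d, and its Pol II counterpart of those of Polr2c and Polr2j. Polr1c (ENSMUSG00000067148, GRCm38 chromosome 17, 46243920 to 46248054, minus strand) had 118, 185 and 187 CPM in Trim-away libraries 1 to 3 and 940, 682, 811 and 869 CPM in buffer libraries 1 to 4. The highest Trim-away value was well under the lowest buffer value, and the means were 164 ± 39.6 (SD, n = 3) and 826 ± 109 CPM (SD, n = 4), a 5.05-fold difference. Polr1c fell by 2.34 on the log2 scale with an SE of 0.26 (edgeR, adjusted p = 0.00481), and the non-manipulated library, at 894 CPM, was within the buffer range. Polr1d had 33.9, 61.6 and 74.8 CPM in the Trim-away and 148, 130, 101 and 186 CPM in the buffer libraries. These also did not overlap, but the log2 fold change of -1.32 with an SE of 0.38 was not past the threshold (edgeR, adjusted p = 0.0715). The Pol II counterparts gave other values. Polr2c, the counterpart of Polr1c, was at 358 to 441 CPM in the Trim-away and 321 to 461 CPM in the buffer libraries, so that the groups lay on top of each other (log2 fold change 0.09, SE 0.22, edgeR adjusted p = 0.888). Polr2j, the counterpart of Polr1d, was at 264 to 388 and 428 to 645 CPM (log2 fold change -0.70, SE 0.25, edgeR adjusted p = 0.141). Per kilobase of exon, the mean buffer level was 362 CPM for Polr1c, 70.9 CPM for Polr2c, 46.4 CPM for Polr1d and 452 CPM for Polr2j. In the Trim-away libraries Polr1c was at 71.8 CPM per kilobase, a level near that of Polr2c (75.3). Polr2c shares 953 exon bases with Dok4 and Polr2j 176 with Lrwd1, both on the opposite strand, and whether reads were counted by strand was not stated in the labels or the study's methods.

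Polr2k and Polr2l encode small zinc-binding subunits that sit next to this heterodimer in all 3 polymerases. Polr2k (ENSMUSG00000045996, GRCm38 chromosome 15, 36174010 to 36177010, plus strand) had 0.602, 6.29 and 9.97 CPM in the Trim-away and 80.9, 60.2, 64.9 and 92.8 CPM in the buffer libraries. Its group means, 5.62 ± 4.72 (SD, n = 3) and 74.7 ± 15.0 CPM (SD, n = 4), differed 13.3-fold, the widest gap among the 8 genes called. Polr2k fell by 3.73 on the log2 scale with an SE of 0.86 (edgeR, adjusted p = 0.0352), and the non-manipulated library was at 70.1 CPM. This call held without Trim-away replicate 1, which had the lowest value, and was lost without any other library, with an adjusted p of up to 0.1096 (edgeR) and a log2 fold change of -4.42 to -3.20 over the 7 fits. Polr2l (ENSMUSG00000038489, GRCm38 chromosome 7, 141471860 to 141475132, minus strand) had 11.9, 30.1 and 18.8 CPM in the Trim-away and 87.0, 103, 95.0 and 86.7 CPM in the buffer libraries. The buffer values were close together and the Trim-away values were all below them, and the log2 fold change was -2.20 with an SE of 0.44 (edgeR, adjusted p = 0.0218). The Polr2l call was lost without Trim-away replicate 3 or buffer replicate 2, 3 or 4, at an adjusted p of up to 0.0689 (edgeR).

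Polr2e, Polr2f and Polr2h encode the other subunits common to all 3 enzymes. Polr2e (ENSMUSG00000004667, GRCm38 chromosome 10, 80035949 to 80039795, minus strand) had 58.3, 107 and 70.5 CPM in the Trim-away and 220, 198, 245 and 167 CPM in the buffer libraries, without overlap. Polr2e fell by 1.40 on the log2 scale with an SE of 0.31 (edgeR, adjusted p = 0.0302), and the non-manipulated library (251 CPM) was above every buffer library. Polr2f (ENSMUSG00000033020, GRCm38 chromosome 15, 79141009 to 79151774, plus strand) had 133, 144 and 145 CPM in the Trim-away and 226, 288, 297 and 299 CPM in the buffer libraries. Here the Trim-away values were nearly equal, and the difference was the narrowest of the 8 genes, 1.97-fold, with a log2 fold change of -0.98 and an SE of 0.22 (edgeR, adjusted p = 0.0348). Of the 8 genes Polr2f was the one that shares exon bases with another gene, 245 bases (9.44%) with 1700088E04Rik on the opposite strand. Polr2h had 6.79, 50.9 and 58.5 CPM in the Trim-away and 176, 184, 94.5 and 147 CPM in the buffer libraries. Its groups did not overlap, Trim-away library 1 stood far below the other two Trim-away libraries, and the log2 fold change of -1.95 with an SE of 0.66 was not past the threshold (edgeR, adjusted p = 0.119). The Polr2e call held without Trim-away replicate 2 and was lost without any other library, with an adjusted p of up to 0.0988 (edgeR), and the Polr2f call was lost without any of the 7 libraries, with an adjusted p of up to 0.108 (edgeR).

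**Figure D2:**
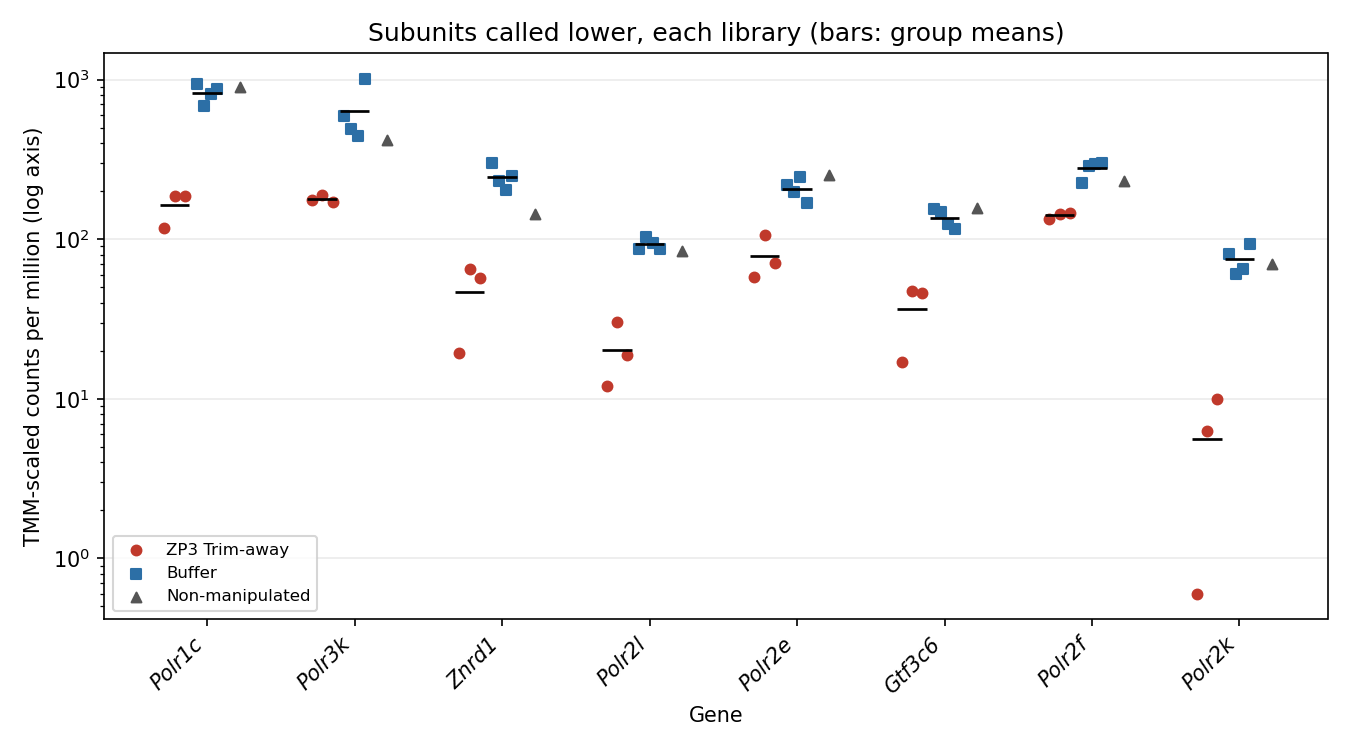
TMM-scaled CPM (log axis) of the 8 genes called lower, in order of p along the x axis, for 3 Trim-away (circles), 4 buffer (squares) and 1 non-manipulated library (triangle); horizontal bars are group means. In every gene the circles lie below the squares and below the triangle, and the gap is widest for Polr2k (0.602 to 9.97 against 60.2 to 92.8 CPM).

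Stretches of 120 bases upstream of the transcription start are shown for 4 of the genes called, as the proximal promoters of these transcripts, with the letters of a common promoter motif in capitals. Capitals mark CCGGAAG, the core of ETS factor sites, in Polr1c, GGCGGG, the GC box, in Polr2l and CCAAT, the CCAAT box, in Znrd1 and Polr3k, each searched on both strands. All are from RefSeq (GRCm38.p6), on the strand of the gene and 5′ to 3′. They lie at chr17:46248055-46248174 (Polr1c, minus strand), chr7:141475154-141475273 (Polr2l, minus strand), chr17:36958560-36958679 (Znrd1, minus strand) and chr2:181864217-181864336 (Polr3k, plus strand).
Polr1c: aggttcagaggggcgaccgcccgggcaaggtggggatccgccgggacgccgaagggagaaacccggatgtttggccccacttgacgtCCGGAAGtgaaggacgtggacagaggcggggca
Polr2l: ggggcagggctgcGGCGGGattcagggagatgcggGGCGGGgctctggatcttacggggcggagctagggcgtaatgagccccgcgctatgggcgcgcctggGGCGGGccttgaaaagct
Znrd1: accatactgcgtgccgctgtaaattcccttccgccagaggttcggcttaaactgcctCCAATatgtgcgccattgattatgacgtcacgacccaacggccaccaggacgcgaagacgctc
Polr3k: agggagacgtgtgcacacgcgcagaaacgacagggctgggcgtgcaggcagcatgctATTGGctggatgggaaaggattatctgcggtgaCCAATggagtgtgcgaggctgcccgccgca
Each stretch ends before the RefSeq start or, where it lies further upstream, the GENCODE start of the gene, so the last base is at -10 from the RefSeq start in Polr1c, -1 in Polr2l, -35 in Znrd1 and -24 in Polr3k. Counted from the RefSeq start, the motif began at -42 in Polr1c, at -107, -85 and -18 in Polr2l, at -97 in Znrd1 and at -86 and -53 in Polr3k. RefSeq promoters were at hand for 31 of the 38 genes, and the 250 bases before the start were searched in each. CCGGAAG was found in 9 of 31 genes (29.0%), against 7.83% of the 27025 genes with a promoter sequence, in 3 of 7 called (Polr1c, Polr2f, Gtf3c6) and in 6 of 24 not called. GGCGGG was found in 19 of 31 (61.3%, against 35.1% of all genes), in 4 of 7 called and 15 of 24 not called. CCAAT was found in 10 of 31 (32.3%, against 37.5%), CACGTG, the E-box, in 4 (12.9%, against 6.86%) and TATAAA, the TATA box, in 3 (9.68%, against 14.3%). A match describes the letters of the window and was not tested as a site.

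The RNA cleavage subunits form a set with a single member in each polymerase, Znrd1 in Pol I, Polr2i in Pol II and Polr3k in Pol III, and 2 of the 3 were lower. Znrd1 (ENSMUSG00000036315, GRCm38 chromosome 17, 36954356 to 36958559, minus strand) had 19.3, 64.9 and 56.8 CPM in the Trim-away and 300.2, 232, 204 and 249 CPM in the buffer libraries. The non-manipulated library, at 143 CPM, lay between the groups. Znrd1 fell by 2.39 on the log2 scale with an SE of 0.44 (edgeR, adjusted p = 0.0155). Polr3k (ENSMUSG00000038628, GRCm38 chromosome 2, 181864337 to 181870830, plus strand) had 177, 188 and 171 CPM in the Trim-away and 588, 493, 445 and 1011 CPM in the buffer libraries. The Trim-away values were almost the same, the buffer values ranged widely with replicate 4 highest, and the non-manipulated library, at 416 CPM, was below every buffer but above every Trim-away library. Polr3k fell by 1.83 on the log2 scale with an SE of 0.32 (edgeR, adjusted p = 0.0138), a call lost without Trim-away replicate 2, at an adjusted p of 0.0509 (edgeR). Polr2i was at 26.6 to 31.1 CPM in the Trim-away and 49.2 to 85.2 CPM in the buffer libraries, which did not overlap, with a log2 fold change of -1.24 and an SE of 0.39 (edgeR, adjusted p = 0.0985). It shares 325 exon bases (26.8%) with Tbcb on the opposite strand. Per kilobase of exon, the mean buffer levels were 300.5, 56.6 and 203 CPM for Znrd1, Polr2i and Polr3k, and the mean Trim-away levels 57.4, 24.0 and 57.1 CPM.

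**Figure D3:**
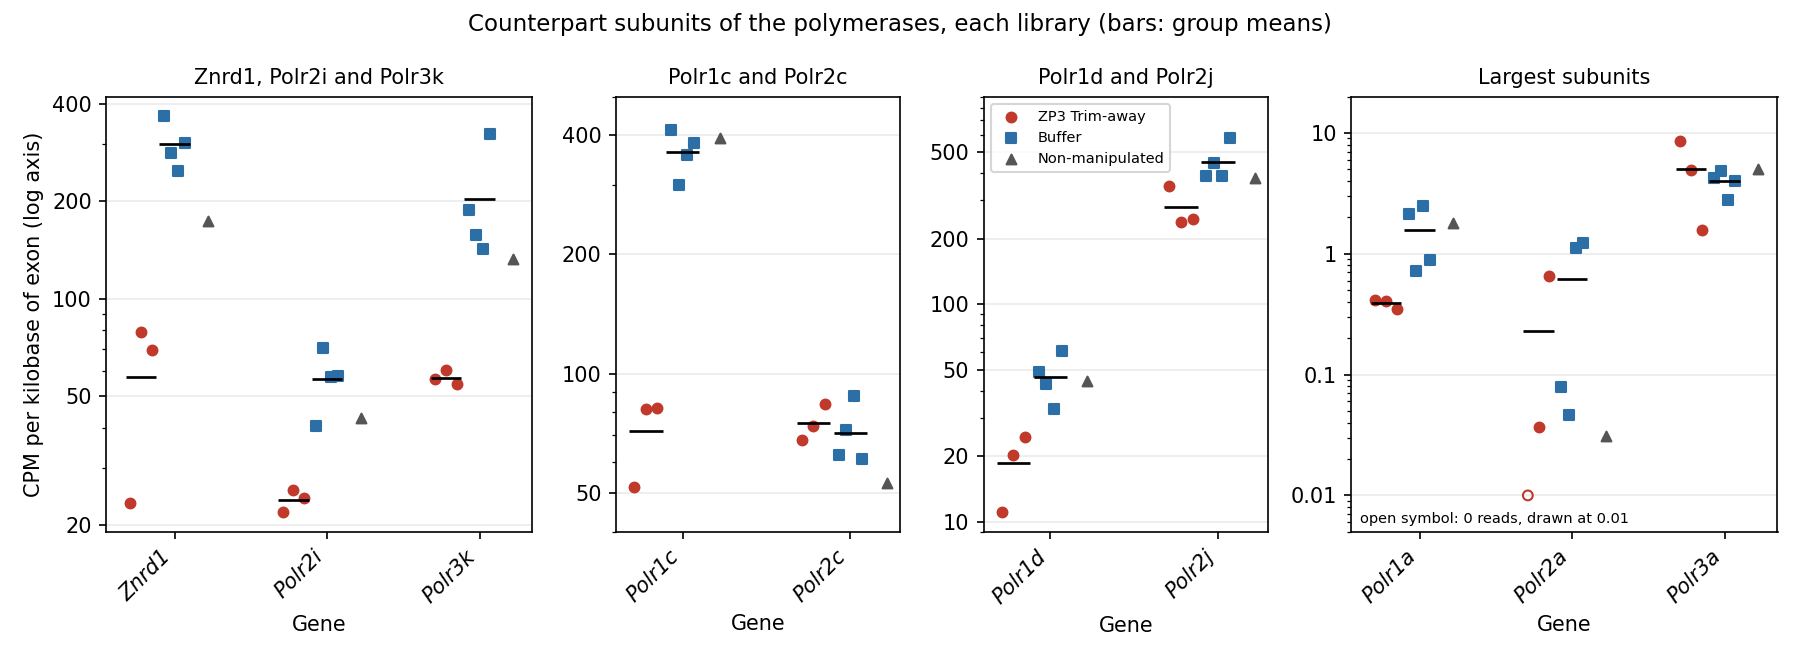
Level per kilobase of exon (CPM per kilobase, log axis, with a separate scale in each panel) of subunits with the same place in different polymerases, for Trim-away (circles), buffer (squares) and non-manipulated (triangle) libraries, with bars for group means and an open symbol for 0 reads. Polr1c is separated between groups (71.8 against 362 on average) where Polr2c is not (75.3 against 70.9), and the largest subunits lie below 10 CPM per kilobase.

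The largest subunits, which carry most of the active site, were low in these libraries and none passed the test. Polr1a had 4.90, 4.80 and 4.12 CPM in the Trim-away and 25.4, 8.51, 29.5 and 10.6 CPM in the buffer libraries. The groups did not overlap, but the buffer values fell into a low and a high pair (log2 fold change -2.004, SE 0.91, edgeR adjusted p = 0.249). Polr2a had 0, 0.260 and 4.63 CPM in the Trim-away and 0.558, 0.326, 7.95 and 8.67 CPM in the buffer libraries, where 0 reads in Trim-away library 1 allow up to 0.258 CPM (3 counts, for counting error only). Low and high values occurred in both groups of libraries, and the fold change could not be estimated well (log2 fold change -1.42, SE 2.05, edgeR adjusted p = 0.781). Polr3a had 50.3, 29.0 and 9.19 CPM in the Trim-away and 24.5, 28.3, 16.2 and 23.3 CPM in the buffer libraries, so the Trim-away values spanned the whole buffer range (log2 fold change 0.35, SE 0.67, edgeR adjusted p = 0.843). Per kilobase of exon, Polr2a had the lowest mean buffer level of all 38 genes (0.619 CPM), and Polr1a (1.56) and Polr3a (3.96) held ranks 35 and 32. The second largest subunits were not called either, with log2 fold changes of -0.01 for Polr1b (SE 0.86), -0.61 for Polr2b (SE 0.33) and -0.80 for Polr3b (SE 1.16).

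The stalk, which binds the emerging RNA, includes the products of Twistnb in Pol I, Polr2g and Polr2d in Pol II and Crcp in Pol III. None of these passed the test, but Crcp had the lowest log2 fold change of the 38 genes, -4.70 with an SE of 1.24 (edgeR, adjusted p = 0.0552). Crcp stood at 0 to 10.4 CPM in the Trim-away and 123 to 177 CPM in the buffer libraries, which were far apart. The 0 reads were in Trim-away library 2 and allow up to 0.195 CPM, and without that library Crcp passed the test at an adjusted p of 0.0219 (edgeR, log2 fold change -4.10). Twistnb was at 4.67 to 10.9 and 27.5 to 70.1 CPM, again without overlap (log2 fold change -2.50, SE 0.68, edgeR adjusted p = 0.0620). The log2 fold changes were -0.05 for Polr2g (SE 0.28) and -0.58 for Polr2d (SE 0.28), with overlapping groups.

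Cd3eap and Polr1e in Pol I and Polr3d and Polr3e in Pol III encode subunits related to the initiation factor TFIIF, and 0 of the 4 passed the test. Polr1e was at 12.8, 218 and 184 CPM in the Trim-away and 304 to 376 CPM in the buffer libraries, and Polr3d at 0.172, 25.4 and 18.8 against 31.7 to 49.3 CPM. In both genes the groups did not overlap and Trim-away library 1 stood far below the other two (log2 fold changes -1.26, SE 0.72, and -1.56, SE 1.12). The groups overlapped in Cd3eap (log2 fold change -1.36, SE 0.84) and Polr3e (-1.83, SE 1.89). Polr2m, which encodes a Pol II subunit that represses initiation and is displaced by Mediator, was at 0 to 7.20 and 10.9 to 36.0 CPM (log2 fold change -2.89, SE 1.43, edgeR adjusted p = 0.296).

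The remaining Pol III subunits, Polr3c, Polr3f and the pair Polr3g and Polr3gl, form a unit used in initiation, and Polr3g and Polr3gl are alternative forms of a single subunit. Polr3g is known from the mouse and human as the form of pluripotent cells and Polr3gl as the form of differentiated cells. Polr3g had 7.31, 197 and 57.4 CPM in the Trim-away and 118, 67.0, 106 and 159 CPM in the buffer libraries, and 249 CPM in the non-manipulated library. Its Trim-away values lay on both sides of the buffer range (log2 fold change -0.36, SE 0.83, edgeR adjusted p = 0.872). Polr3gl had 10.4, 3.96 and 3.47 CPM in the Trim-away, 0, 0, 2.19 and 4.86 CPM in the buffer libraries and 14.1 CPM in the non-manipulated library. In buffer libraries 1 and 2 the 0 reads allow up to 0.140 CPM each, the groups overlapped, and the log2 fold change was 1.75 with an SE of 2.06 (edgeR, adjusted p = 0.724). The log2 ratio of Polr3g to Polr3gl, with 0.5 CPM added to both, was -0.48, 5.47 and 3.86 in the Trim-away and 7.88, 7.08, 5.31 and 4.90 in the buffer libraries. The means differed by -3.34, and an exact two-sided permutation test over the 35 assignments of the 7 libraries gave p = 0.114, where the smallest p it can give is 0.0286. Without Trim-away replicate 1, in which alone Polr3gl exceeded Polr3g, the difference was -1.62. Polr3c was not called (log2 fold change -1.04, SE 1.23). Polr3f was at 54.7 to 91.5 CPM in the Trim-away and 19.8 to 71.1 CPM in the buffer libraries, and its log2 fold change of 1.01 with an SE of 0.52 was not past the threshold (edgeR, adjusted p = 0.323).

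**Figure D4:**
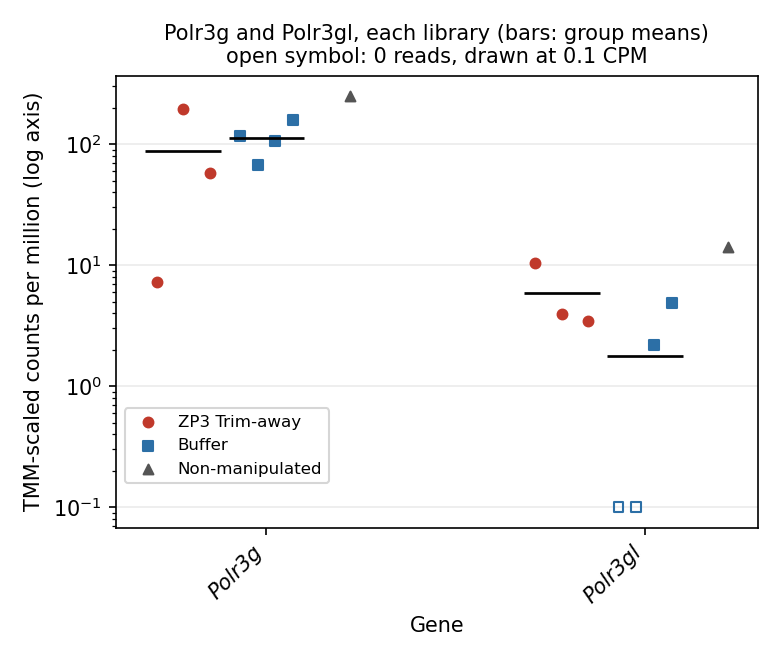
TMM-scaled CPM (log axis) of Polr3g and Polr3gl in Trim-away (circles), buffer (squares) and non-manipulated (triangle) libraries, with bars for group means and open symbols for 0 reads drawn at 0.1 CPM. Polr3g exceeded Polr3gl in every library but Trim-away library 1, where the values were 7.31 and 10.4 CPM.

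Among the TFIIIC subunits, Gtf3c6, the smallest, was lower. Gtf3c6 (ENSMUSG00000019837, GRCm38 chromosome 10, 40247703 to 40258108, minus strand) had 17.0, 47.2 and 46.0 CPM in the Trim-away and 154, 148, 125 and 116 CPM in the buffer libraries, and 157 CPM in the non-manipulated library. The groups were well apart, and Gtf3c6 fell by 1.88 on the log2 scale with an SE of 0.42 (edgeR, adjusted p = 0.0321). This call held without Trim-away replicate 1 and was lost without any other library, at an adjusted p of up to 0.0761 (edgeR). The other TFIIIC genes, Gtf3c1, Gtf3c2, Gtf3c3, Gtf3c4 and Gtf3c5, had log2 fold changes of -1.27 to -0.24 and were not called, and of these only Gtf3c5 had groups that did not overlap (13.6 to 32.0 against 39.8 to 52.2 CPM). Gtf3c2 shares 2556 exon bases (38.9%) with Gm29609 on the same strand.

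The 8 genes called had a mean over the 7 injected libraries of at least 45.1 CPM, a level that 24 of the 38 genes reached. The median SE of the log2 fold change was 0.37 for the 8 genes and 0.70 for the other 30, and the largest SE among the 8 was 0.86 (Polr2k). Genes with small SE also occurred among those not called, such as Polr2c (0.22) and Polr2j (0.25). The summed exon length of the 8 genes called was 0.624 to 3.12 kb, with a median of 2.44 kb, against 4.61 kb for the genes not called. Over the 38 genes, the log2 fold change and the exon length had a Spearman rho of 0.30, and the log2 fold change and the mean CPM one of 0.10, both over the same 7 libraries and given as a description. Trim-away library 1 lay below every buffer library in 30 of 38 genes, against 22 and 26 genes for Trim-away libraries 2 and 3. Over all genes tested, these 3 libraries lay below every buffer library in 32.5%, 27.8% and 24.8%. In the genes called, the value as a share of the buffer mean was 0.806% to 47.9% in Trim-away library 1, 8.43% to 52.0% in library 2 and 13.3% to 52.2% in library 3. The part of depth or of Trim-away library 1 in these differences was not tested beyond the fits without single libraries.

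The non-manipulated library was within the range of the buffer libraries in 18 of 38 genes, above it in 11 and below it in 9. In all 8 genes called it was above every Trim-away library. These 8 genes were called for Trim-away values below those of the buffer libraries, so this count is a description and no separate support. The shares over all genes tested were not computed for the non-manipulated library.

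Factors that work with the polymerases were taken from 6 further lists, and 12 of the 86 genes tested in them were lower and 0 higher, against 3.91% and 2.98% of all genes tested. The median log2 fold change of all genes tested was -0.04. Of the assembly and import factors, 4 of 18 were lower. These were Pfdn6 (log2 fold change -3.36, SE 0.40), a prefoldin subunit, Pdrg1 (-2.41, SE 0.39) and the ATPase Ruvbl1 (-2.01, SE 0.42), which belong to the R2TP and prefoldin-like assembly machinery, and the GTPase Gpn3 (-1.69, SE 0.41), which acts in Pol II import (edgeR, adjusted p = 0.00551, 0.0109, 0.0258 and 0.0403). Of the Pol II elongation factors, 4 of 23 were lower: Supt4a, a subunit of DSIF (-1.76, SE 0.32), Nelfe, a subunit of NELF (-2.58, SE 0.57), and Elob and Eloc, the elongins B and C (-2.92, SE 0.64, and -0.99, SE 0.22), with edgeR adjusted p of 0.0161, 0.0304, 0.0300 and 0.0323. Of the Pol II general transcription factors, 2 of 16 were lower, Gtf2h5 (-1.80, SE 0.30, edgeR adjusted p = 0.0122) and Cdk7 (-1.50, SE 0.27, edgeR adjusted p = 0.0150), both parts of TFIIH. Of the Pol III initiation and regulation factors, 2 of 13 were lower, Snapc3 (-2.17, SE 0.32, edgeR adjusted p = 0.00879) and Snapc5 (-2.25, SE 0.43, edgeR adjusted p = 0.0183), subunits of the complex that binds small nuclear RNA promoters. In the lists of Pol I initiation and termination factors (9 genes) and of mitochondrial transcription (7 genes), 0 were called, with median log2 fold changes of -1.03 and -0.58.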

How the data were processed

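RNA of pooled embryos was prepared with a kit for low RNA input and sequenced as single reads. Per the labels and the study's methods, reads were checked by the authors (FastQC 0.11.9), adapter-trimmed (Trimmomatic), aligned to GRCm38 (HISAT2), sorted (SAMtools) and assigned to Ensembl genes with htseq-count, and the raw counts they deposited were used. The deposited RPKM columns were not used, because many entries are not numbers. Where a setting needed RPKM it was computed here from the counts and the gene span of GENCODE M21, which departs from the plan to use the deposited values.

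Counts were analysed in R 4.3.3 with edgeR 4.0.16 (filterByExpr, TMM, quasi-likelihood test of 3 Trim-away against 4 buffer libraries, Benjamini-Hochberg adjustment over 13641 genes, threshold 0.05), limma 3.58.1 and DESeq2 1.42.0, and in Python 3.11.15 with pandas 2.3.3, scipy 1.17.1 and matplotlib 3.10.9. The script was tested on simulated data. Exon lengths, positions and overlaps are those of GENCODE M21, in which all 38 genes have an entry. Of these, 12 share exon bases with another gene. The values of 1 gene are not reported here and it is left out of the plot of fold changes, but it is counted in the totals. Log2 fold changes are Trim-away over buffer, with SE from the F statistic. The non-manipulated library was scaled with the others and not tested. Floors for 0 reads are 3 counts in that library.

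The genes, lists and settings were chosen with earlier results of these data known. Values in each library were given for genes called, the largest subunits, Polr3g, Polr3gl and the shared subunits; of the lists, genes called were named, up to 4 each in order of p, and other values serve to describe the groups. Alternatives were other scalings, tests, filters, RPKM with 2 pseudocounts (0.1 and 1), a replicate block and the omission of libraries.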

Additional observations from a re-analysis of the deposited data

Results flagged for a closer look

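Polr2f was at 226.4 CPM in buffer replicate 1, apart from the other buffer libraries at 288, 297 and 299 CPM. Twistnb was at 70.1 CPM in buffer replicate 4, with the other buffer libraries at 27.5, 32.2 and 32.4 CPM. Both were marked because the gap to the nearest library took up more of the range of the 4 buffer libraries than Dixon's limit allows (shares of 0.848 and 0.884), and chance marks about 1 in 20 groups of libraries.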

How the results depend on the processing

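The count of 8 genes lower stayed within 1.5 times its value with size factors of DESeq2 in edgeR, total counts, both other filters and the fold limit (7 to 8), with limma-voom (9) and with log2(RPKM + 0.1) (10). It was 13 with DESeq2, 15 with log2(RPKM + 1) and 14 when both Trim-away libraries with little Trim21 were omitted, where the lone Trim-away library is assumed to vary like the buffer libraries, the median of the genes was -1.93 and that of all genes -1.24. In these 3 fits 9.98%, 8.56% and 5.12% of all genes were lower, against 3.91%. Leaving out single libraries gave 3 to 6 genes, and 1.54% to 3.06% of all genes. Polr2f was lost in each of these fits. It was also lost with log2(RPKM + 0.1), with the fold limit and with no filter on low counts, where Crcp was called instead. With the replicate block (libraries 1 to 3 of each group) 0 genes were called, of the 38 and of all 12914 tested, against 3 of the 38 in the same 6 libraries without it. Same-numbered libraries had deviations correlated at -0.06, 0.01 and -0.000517. These values show no pairing by number, but they cannot exclude it, because the spread between libraries was wide. The number higher was 0 under every setting, and no fold change past the threshold changed sign. Of 683 values of single genes under the 18 settings, 614 kept their side of the threshold, 43 lost and 26 gained it. Genes called only under an alternative numbered 13, with Crcp called in 7 settings. The difference of the Polr3g to Polr3gl log2 ratio was -4.60 to -1.62 without single libraries and -4.50 with 0.1 CPM added. The biological coefficient of variation common to all genes was 1.16, and the depth and number of libraries leave smaller differences undetected.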
